A study of Mus musculus with 6 samples.

Results

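The mitochondrial translation genes described here are the rows of the deposited table whose symbol starts with Mrpl or Mrps and a digit, or ends in ars2, with a mean level above 1 CPM (counts scaled to a common library size) over the 6 mice. They number 94 of the 24054 genes in the table. The large ribosomal subunit (Mrpl) accounts for 48 of them, the small subunit (Mrps) for 29 and the aminoacyl-tRNA synthetases for 17. All 94 rows that match by symbol passed the level rule. The lowest of them, Ears2, averaged 4.73 CPM, so no gene lies just outside the rule. The rule itself uses symbols and the mean level and no comparison between the groups, but it was set with earlier results of these data known.

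RNA-seq was performed on tissue of 3 MitoParks and 3 littermate controls on the C57BL/6 background, 1 library per mouse. MitoParks carried Cre at 1 allele of the dopamine transporter gene together with loxP-flanked Tfam alleles (Dat +/Cre : Tfam loxP/loxP). Littermate controls lacked Cre and carried 1 loxP-flanked Tfam allele (Dat +/+ : Tfam +/loxP), so no group was free of the modified Tfam. The mice received no treatment and the sample labels give an age of 16 to 17 weeks. The labels name the tissue as brain, while the methods of the study name the substantia nigra (SN). Cre is made only in cells that express the dopamine transporter, so most cells of a dissected SN keep Tfam, and each value below is an average over all cells of the tissue. In such bulk samples, fewer cells of a type and less RNA per cell cannot be told apart.

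Mitochondria keep their own ribosome, which makes the core respiratory chain proteins encoded by mitochondrial DNA. Its ribosomal RNAs come from that DNA, but every ribosomal protein and every synthetase is encoded in the nucleus, made in the cytosol and imported. Mitochondrial transcription factor A, the product of Tfam, packages mitochondrial DNA and starts its transcription, and so stands upstream of the RNAs that these proteins bind or charge. Genes encoded by mitochondrial DNA were not analysed here.

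Every member is nuclear, and the promoters were read for elements that the members could have in common. RefSeq start sites on the GRCm38.p6 build gave a window from 250 bases before to 50 bases after the start for 82 of the 94 members. A CCGGAAG element, the core of ETS factor sites such as those of GABP (Nrf2), was present on either strand in 28 of these 82 windows (34.1%), against 16.6% of the windows of all genes tested. The YY1 element ATGGCGGC was present in 15 (18.3% against 4.68%). Most of these matches lay after the start site, where ATG can also open the coding sequence, and this was not tested. The palindrome of nuclear respiratory factor 1 (Nrf1), GCGCA followed by TGCGC, was present in 3 (3.66% against 1.93%), and the looser form, GCGCA then any base then GCGC, which includes it, in 15 (18.3% against 9.72%). These are letter matches and not sites shown to be bound.

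Members were also read for genes that stand head to head with them. Starts of protein-coding genes on the opposite strand were counted within 1000 bases upstream, or a short way downstream where the genes overlapped head-on. Such a start was found for 27 of 82 members (32.9%) and for 10.9% of the tested protein-coding genes with a start. In most cases the partner was not a member, but Mrps12 lay 147 bases from Sars2 and Mrpl46 lay 42 bases from Mrps11. The windows of Sars2 and Mrps11 are shown because each holds the starts of 2 members. That of Mrpl45 is shown for its matches to the looser Nrf1 form, and that of Mrpl9 as 1 of the 3 with the palindrome. Capitals mark the motif letters, on either strand. In the first window (chr7:28741718-28742017, plus strand) Sars2 starts after the first 250 bases and Mrps12 at position 104 on the minus strand, and the capitals mark CCGGAAG read on the minus strand. In the second (chr7:78782881-78783180, plus strand) Mrps11 starts after the first 250 bases and Mrpl46 at position 209 on the minus strand, and the capitals mark the YY1 element read on the minus strand. In the third (chr11:97315466-97315765, plus strand) the capitals mark 3 matches to the looser Nrf1 form, on one strand or the other. In the fourth (chr3:94443086-94443385, plus strand) they mark the Nrf1 palindrome followed by the YY1 element.
Sars2: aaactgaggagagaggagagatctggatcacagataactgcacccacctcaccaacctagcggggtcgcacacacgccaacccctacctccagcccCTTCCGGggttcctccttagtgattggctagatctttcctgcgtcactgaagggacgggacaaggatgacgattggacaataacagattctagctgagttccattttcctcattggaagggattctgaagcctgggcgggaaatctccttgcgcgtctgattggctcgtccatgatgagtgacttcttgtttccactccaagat
Mrps11: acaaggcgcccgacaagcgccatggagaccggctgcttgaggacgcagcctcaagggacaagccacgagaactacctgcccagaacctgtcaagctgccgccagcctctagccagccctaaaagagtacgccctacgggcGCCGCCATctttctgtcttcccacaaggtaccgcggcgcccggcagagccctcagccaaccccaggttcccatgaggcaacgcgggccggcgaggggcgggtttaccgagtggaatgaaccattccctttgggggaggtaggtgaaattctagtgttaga
Mrpl45: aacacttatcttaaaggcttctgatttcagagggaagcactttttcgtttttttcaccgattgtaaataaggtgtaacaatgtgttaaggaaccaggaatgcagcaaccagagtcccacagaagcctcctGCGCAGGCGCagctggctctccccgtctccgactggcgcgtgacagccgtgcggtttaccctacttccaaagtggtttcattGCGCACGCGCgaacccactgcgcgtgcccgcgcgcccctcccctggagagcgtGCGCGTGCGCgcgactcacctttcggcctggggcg
Mrpl9: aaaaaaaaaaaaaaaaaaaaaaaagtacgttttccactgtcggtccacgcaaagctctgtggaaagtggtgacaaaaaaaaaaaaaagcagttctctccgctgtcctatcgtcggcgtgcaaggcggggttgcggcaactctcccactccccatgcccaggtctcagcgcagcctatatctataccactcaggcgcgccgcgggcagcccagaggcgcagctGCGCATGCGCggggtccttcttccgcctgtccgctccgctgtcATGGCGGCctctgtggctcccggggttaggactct

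The libraries held between 8140777 and 10528602 expected counts, and the members between 33 and 16420 counts per mouse. Tfam was read first as a check of the genotype. It stood at 40.3, 44.4 and 45.5 CPM in littermate controls and at 32.7, 33.1 and 33.2 CPM in MitoParks. No MitoPark reached the lowest control. Its log2 fold change was -0.40 ± 0.11 (SE), with an unadjusted p of 0.00565 in edgeR's quasi-likelihood test and a Benjamini-Hochberg adjusted p = 0.999. All 10 dopaminergic neuron markers (Th and Slc6a3 among them) passed the level filter. They summed to between 458.5 and 1502 CPM in controls and between 303.3 and 560.9 CPM in MitoParks, with control 3 far above the other mice. Oligodendrocyte markers summed to 6335, 9025 and 16995 CPM in controls and to 8752, 11458 and 14467 CPM in MitoParks. Whether such differences in cell makeup play a part in the values below was not tested. Of 5 striatal neuron markers, 4 were tested and summed to between 87.0 and 146.4 CPM per mouse.

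None of the 94 members passed an unadjusted p of 0.05 between MitoParks and littermate controls in edgeR's quasi-likelihood test, nor by DESeq2 or limma-voom, and so none was a differentially expressed gene (DEG), for which a change of over 1.5-fold was asked as well. Of all 14568 genes tested, 1.11% passed that p (0.659% higher, 0.446% lower in MitoParks) and 0.577% were DEGs, so about 1 member at the p alone would match the background. After Benjamini-Hochberg adjustment over all genes tested, no gene passed 0.05 (0.0%), and every member had an adjusted p = 0.999. The median log2 fold change was -0.0094 in the large subunit (20 higher, 28 lower in MitoParks), -0.017 in the small subunit (13 higher, 16 lower) and 0.029 in the synthetases (12 higher, 5 lower). Over all genes tested it was -0.0047. The sign of each class median changed with some mouse left out, so none of them has a direction beyond the spread between mice. The p-values measure the spread between these mice, and no litter or day of dissection is known for them.

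**Figure D1:**
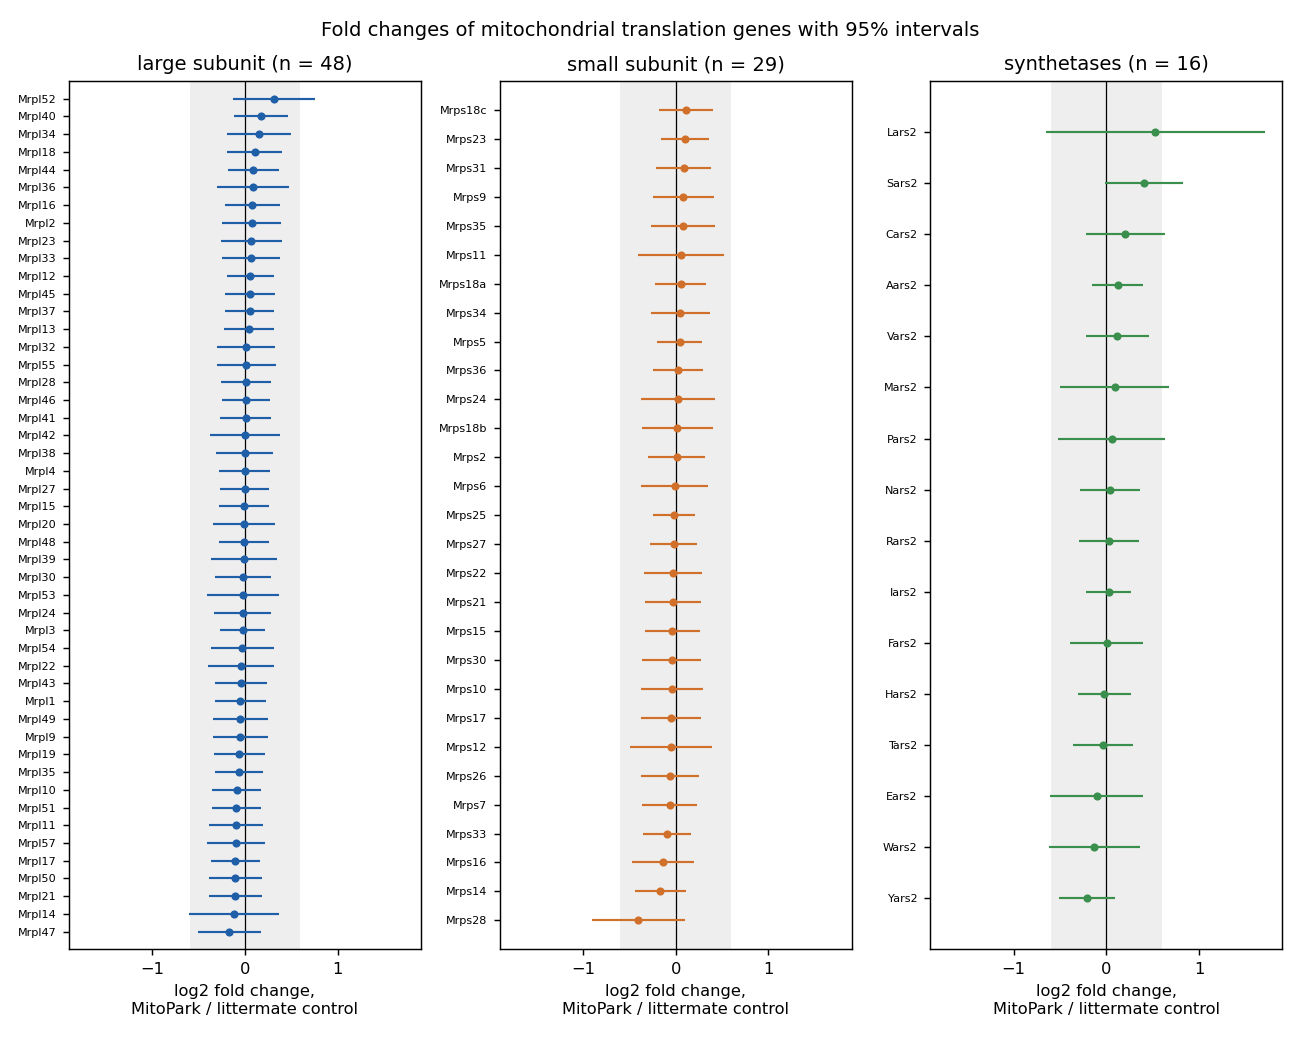
Log2 fold change (horizontal axis, MitoPark over littermate control) of the members reported by name (vertical axis) with 95% intervals, by class, 3 mice per group. The grey band marks a change of 1.5-fold either way. Every interval shown includes 0, and Lars2 has the widest.

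The fits also gave the size of change that these mice could have hidden. The 95% interval of the fold change lay wholly within 1.5-fold either way for 84 of the 94 members (89.4%), against 66.5% of all genes tested. By class this held for 46 of 48 large subunit members, 28 of 29 small subunit members and 10 of 17 synthetases. The exceptions in the ribosome were Mrpl52, Mrpl14 and Mrps28. Among synthetases they were Lars2, Sars2, Cars2, Mars2, Pars2, Ears2 and Wars2, of which all but Lars2 were counted at low levels. The median standard error was 0.13 in the large subunit, 0.14 in the small subunit and 0.16 in the synthetases and in all genes. In bulk SN tissue, then, a change beyond 1.5-fold lay outside the interval for most of the ribosome, while a change confined to dopaminergic neurons was not measured.

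In the large subunit, the fold changes on the log2 scale ran from -0.17 to 0.31. Mrpl52, a subunit found only in mitochondrial ribosomes, stood at 9.80, 12.7 and 10.4 CPM in littermate controls and at 16.9, 11.2 and 12.8 CPM in MitoParks. MitoPark 1 was the highest mouse, and MitoPark 2 lay below control 2. Its log2 fold change of 0.31 ± 0.20 (SE) was the largest of the class (exact permutation p = 0.2), and without MitoPark 1 it was 0.14. Mrpl40, also specific to mitochondria, stood at 18.9, 20.2 and 18.9 CPM in controls and at 24.5, 19.7 and 21.4 CPM in MitoParks. The groups overlapped through MitoPark 2 and control 2, and the log2 fold change was 0.18 ± 0.13 (SE, exact permutation p = 0.2). At the other end, Mrpl47 had 13.8, 15.01 and 14.1 CPM in controls and 12.6, 14.4 and 11.2 CPM in MitoParks, with a log2 fold change of -0.17 ± 0.15 (SE, exact permutation p = 0.3). MitoPark 2 lay within the control range. Mrpl14, which sits at the face that meets the small subunit, followed at -0.12 ± 0.22 (SE).

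The subunits of the stalk that receives elongation factors were close between groups. Mrpl12, the counterpart of the bacterial stalk protein that also binds mitochondrial RNA polymerase, averaged 37.6 ± 2.70 CPM in controls and 39.2 ± 0.677 CPM in MitoParks (SD, n = 3 each). Its 95% interval ran from -0.20 to 0.31 on the log2 scale. Mrpl10, which anchors the stalk, averaged 49.3 ± 4.23 and 46.4 ± 3.36 CPM (SD, n = 3 each). Mrpl3, which reaches towards the peptidyl transferase centre, averaged 38.7 ± 1.64 and 38.0 ± 1.49 CPM, and Mrpl44, which has a ribonuclease fold, 20.7 ± 1.77 and 22.1 ± 0.214 CPM. Each of these differences was within the spread of the control mice. Mrps30 and Mrps18a carry small subunit names but sit in the large subunit of the assembled ribosome. Their log2 fold changes were -0.04 ± 0.14 and 0.05 ± 0.12 (SE).

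In the small subunit, Mrps28 had the lowest fold change. It stood at 5.35, 8.17 and 6.84 CPM in littermate controls and at 5.49, 4.85 and 5.10 CPM in MitoParks. The MitoParks were alike, and the controls spread from below MitoPark 1 to well above it. Its log2 fold change was -0.40 ± 0.22 (SE, exact permutation p = 0.2), with an unadjusted p of 0.103 in edgeR's test. Without control 1 it was -0.54 with an unadjusted p of 0.0467, when 1.65% of all genes passed, and without control 2 it was -0.25 with one of 0.343. Mrps14 stood at 33.7, 37.0 and 29.7 CPM in controls and at 31.1, 29.9 and 28.6 CPM in MitoParks. Control 3 lay among the MitoParks, and the log2 fold change was -0.17 ± 0.12 (SE, exact permutation p = 0.3). Mrps16, needed to assemble the subunit, was at -0.14 ± 0.15 (SE). The highest fold changes of the class were those of Mrps18c (0.11 ± 0.13) and Mrps23 (0.10 ± 0.11).

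Mrps12, the protein of the decoding centre, stood at 21.05, 24.4 and 17.1 CPM in controls and at 25.8, 17.2 and 17.3 CPM in MitoParks, so that the mice of each group covered nearly the same range. Mrps34, which keeps the small subunit stable, averaged 27.0 ± 1.81 CPM in controls and 28.0 ± 4.29 CPM in MitoParks (SD, n = 3 each). Mrps22, Mrps2 and Mrps7 differed by -0.03, 0.01 and -0.07 on the log2 scale, each by less than its standard error. Of the Mrps18 paralogues, Mrps18b was at 0.02 ± 0.17. Mrps36, which has been placed in the oxoglutarate dehydrogenase complex rather than in the ribosome, was at 0.03 ± 0.12.

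The ribosomal proteins were also split by descent, into those with a bacterial counterpart and those found only in mitochondria. In the large subunit the 30 with a counterpart had a median log2 fold change of -0.0094 and the 18 without one -0.0074. In the small subunit the medians were -0.021 (18 genes) and -0.017 (11 genes). The 4 medians lay within 0.02 of each other, and their ranges overlapped.

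The synthetases charge tRNAs with their amino acids and gave the most scattered values, from -0.21 to 0.53 on the log2 scale. Among all 94 members, the MitoParks and littermate controls did not overlap for 2 (2.13%), both of them synthetases, while 4.71% of all genes tested did not overlap (2.43% higher, 2.28% lower in MitoParks). The share among members was thus below the background. Sars2, the serine enzyme, stood at 6.57, 7.50 and 7.43 CPM in controls and at 10.1, 7.99 and 10.5 CPM in MitoParks. Every MitoPark lay above every control, although MitoPark 2 did so narrowly. The log2 fold change was 0.41 ± 0.19 (SE), with an unadjusted p of 0.0548 in edgeR's quasi-likelihood test, the smallest of the 94 members, and a Benjamini-Hochberg adjusted p = 0.999. It rests on 59 to 93 counts per mouse. An exact two-sided permutation test gave p = 0.1, the lowest that 3 against 3 mice allow. Without MitoPark 2, Sars2 reached an unadjusted p of 0.0204 at a log2 fold change of 0.53, when 4.49% of all genes passed, and with other single mice left out it was as high as 0.148.

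Sars2 and Mrps12, whose starts share the window printed above, did not have like values. Mrps12 was highest in MitoPark 1 and control 2, and its log2 fold change was -0.05 ± 0.20 (SE), against 0.41 for Sars2. The difference between these fold changes was not tested. The other such pair, Mrps11 and Mrpl46, had log2 fold changes of 0.06 ± 0.21 and 0.01 ± 0.12 (SE).

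Yars2, the tyrosine enzyme, was the member whose groups did not overlap in the other direction. It stood at 16.9, 17.1 and 17.0 CPM in controls and at 16.2, 14.9 and 13.2 CPM in MitoParks. The controls were nearly identical, and all MitoParks lay below them. The log2 fold change was -0.21 ± 0.13 (SE), with an unadjusted p of 0.157 in edgeR's test and an exact permutation p = 0.1. Without MitoPark 3 it was -0.13. Cars2, the cysteine enzyme, was at 0.20 ± 0.19 (SE) and Wars2, the tryptophan enzyme, at -0.13 ± 0.22 (SE). Aars2 and Ears2, which are mutated in inherited leukoencephalopathies, were at 0.12 ± 0.12 and -0.11 ± 0.22. Hars2, Rars2 and Fars2 each differed by 0.03 or less on the log2 scale.

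Lars2, the leucine enzyme, was set apart by its level and by a single mouse. It stood at 547, 657 and 637 CPM in littermate controls and at 343, 452 and 1862 CPM in MitoParks. MitoParks 1 and 2 lay below every control, and MitoPark 3 lay far above all other mice. With all mice, the log2 fold change was 0.53 ± 0.52 (SE), with an unadjusted p of 0.338 in edgeR's test, and had the widest interval of the 94 members. By limma-voom it was 0.11 and with the replicate number as a block 0.09, below Sars2 in both (0.39 and 0.40). Without MitoPark 3 it turned to -0.63 ± 0.16 (SE) (unadjusted p of 0.00399 in edgeR's test, adjusted p = 0.9999), when 0.668% of all genes passed the unadjusted p. The direction of Lars2 therefore rests on 1 mouse.

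The gene Rn45s, the precursor of the cytosolic ribosomal RNAs, had a like pattern. It stood at 3212, 3419 and 4542 CPM in controls and at 1276, 2940 and 9031 CPM in MitoParks. MitoPark 3 was again the highest mouse and MitoPark 1 the lowest. As a description over the 6 mice on the log2 scale, Lars2 and Rn45s had a Pearson r of 0.93 and a Spearman rho of 0.94, and r was 0.92 over the 5 mice without MitoPark 3 and 0.72 over the 4 without MitoParks 1 and 3. Lars2 stood at between 14.0% and 26.9% of the Rn45s level in every mouse. By Pearson r with Lars2, Rn45s ranked 66 among 14516 genes. Without MitoPark 3, the log2 fold change of Rn45s was -0.82 ± 0.32 (SE), with an unadjusted p of 0.0351. The libraries were made from polyadenylated RNA, in which Rn45s reads are residual. Whether reads of Lars2 and Rn45s have a common source was not tested.

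**Figure D2:**
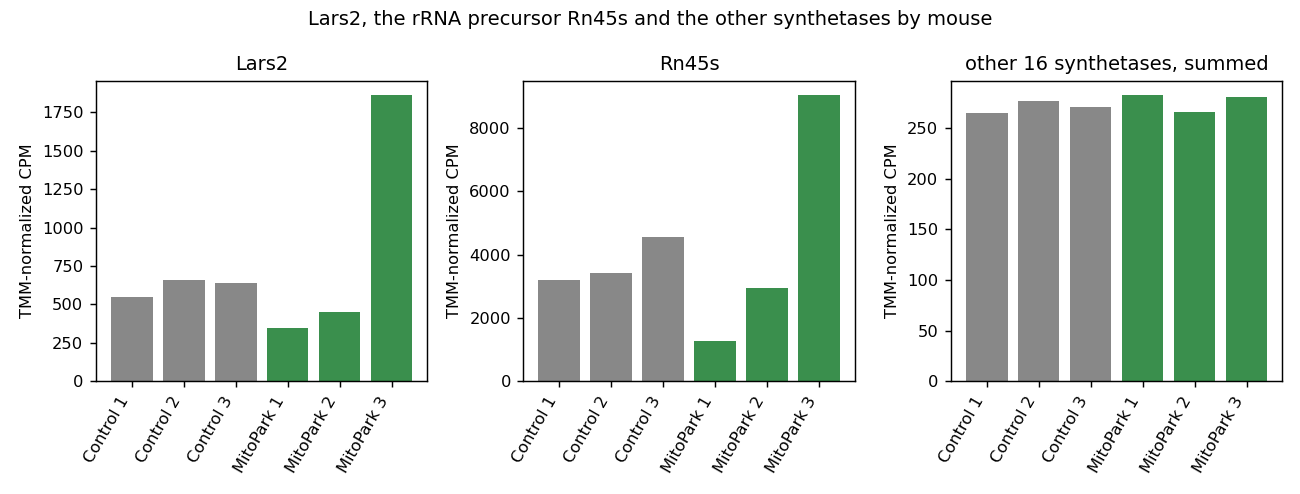
TMM-normalized CPM (vertical axes, each from 0) in each mouse for Lars2, for Rn45s and for the other 16 synthetases summed. Grey bars are littermate controls and green bars MitoParks. MitoPark 3 is the highest for Lars2 (1862 CPM) and Rn45s (9031 CPM), while the other synthetases sum to between 265.5 and 282.7 CPM in every mouse.

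Lars2 alone took between 54.9% and 86.9% of all synthetase CPM, the highest share being that of MitoPark 3. The other 16 synthetases summed to 265.5, 276.8 and 271.5 CPM in controls and to 282.7, 266.2 and 281.2 CPM in MitoParks. These sums spanned a narrow range and the groups overlapped. The median log2 fold change of the synthetases was 0.026 without Lars2 (11 higher, 5 lower). The summed CPM of the large subunit was 1325 ± 95.5 in controls and 1317 ± 39.9 in MitoParks, and that of the small subunit 810.7 ± 46.7 and 805.3 ± 19.6 (SD, n = 3 each). For both subunits the difference between groups was well within the spread between mice.

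Levels of different members were compared as CPM per kilobase of transcript, with the longest protein-coding GENCODE M21 transcript as the length. The median was 19.3 CPM per kilobase in the large subunit, 16.8 in the small subunit and 5.15 in the synthetases. Ribosomal proteins ranged from 3.96 (Mrps35) to 58.0 (Mrps21) CPM per kilobase. Both Mrps21 and Mrpl42 (49.5) are encoded by short transcripts. Lars2 was the highest of all members at 192.5 CPM per kilobase, and the other synthetases reached from 0.674 (Mars2) to 10.99 (Rars2). By coding length alone the medians were 46.2, 42.0 and 8.65, in the same order. The lengths assume the longest transcript, so a single gene's rank depends on the isoform made.

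**Figure D3:**
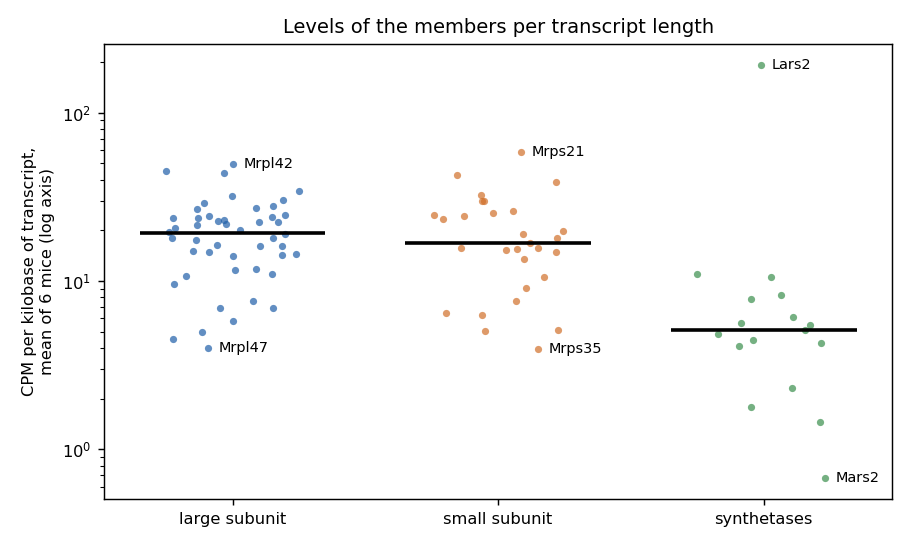
Level of each member as CPM per kilobase of transcript (vertical log axis, mean of 6 mice) by class. Bars mark the class medians of 19.3, 16.8 and 5.15. Lars2 stands above all others and Mars2 is the lowest.

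The ribosomal proteins varied together from mouse to mouse, with both extremes among the controls. For each member, the level in a mouse was set against its mean over the 6 mice. The median log2 value over the large subunit was -0.09, 0.12 and 0.01 in controls 1, 2 and 3 and 0.05, -0.04 and -0.01 in MitoParks 1, 2 and 3. Controls 1 and 2 were thus the extremes, with every MitoPark between them. The small subunit medians were -0.09, 0.07 and -0.01 in controls and 0.02, -0.05 and -0.0027 in MitoParks, with the same extremes. The synthetases differed, with -0.03, 0.04 and 0.0029 in controls and 0.04, -0.04 and 0.10 in MitoParks, so that MitoParks 2 and 3 were their extremes. Without Lars2 their medians were -0.03, 0.02 and 0.01 in controls and 0.05, -0.02 and 0.08 in MitoParks. Control 1 was then the lowest mouse, as in both subunits, and MitoPark 3 stayed the highest. In control 1 only 8 of the 48 large subunit members exceeded their mean, and in control 2 it was 43. Over all 94 members, control 1 was the lowest mouse for 37 and control 2 the highest for 34. Among all genes tested these shares were 17.8% and 14.0%.

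**Figure D4:**
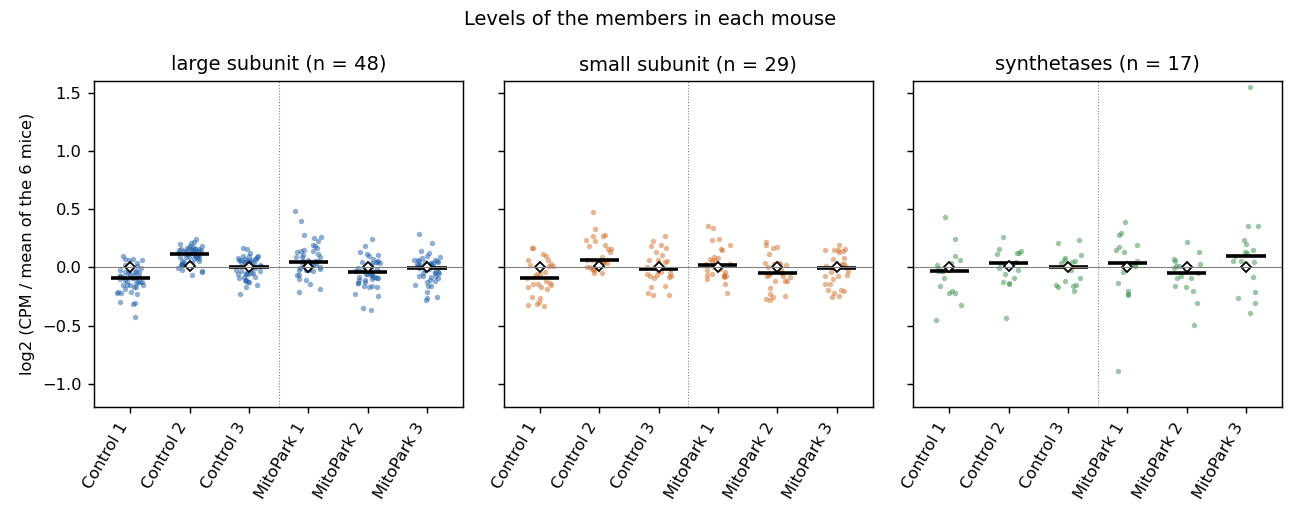
Log2 of each member's TMM-normalized CPM over its mean of 6 mice (vertical axis), by mouse and class. Points are members, bars the class medians and diamonds the median of all genes tested. In the large subunit the medians of control 1 (-0.09) and control 2 (0.12) lie farthest apart.

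Between these mice the median log2 difference, control 2 over control 1, was 0.20 in the large subunit (43 of 48 higher) and 0.20 in the small subunit (24 of 29 higher). It was 0.08 in the synthetases (11 of 17 higher) and 0.0075 over all genes. For the ribosomal proteins, the gap between these 2 mice was more than 10 times the median difference between genotypes. The 2 controls were taken as the extremes of the 6 mice, while the difference between genotypes is between means of 3 mice. A large ratio follows in part from that choice. Control 1 had fewer expected counts than control 2 (8914308 against 10528602) and the lowest oligodendrocyte marker sum (6335 against 9025 CPM). Choroid plexus markers (3 of 5 tested) summed to 149.4 CPM in control 2, to 23.1 CPM in control 1 and to between 7.43 and 36.1 CPM in the other mice. The part of any of these in the gap was not tested.

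Transcript length moved with this pattern. Transcripts under 1500 bases made up 48.9% of the members and 12.6% of all genes tested with a length. Over the 1807 tested genes with such short transcripts, the per-mouse medians were -0.08, 0.10 and -0.02 in controls and 0.07, -0.07 and 0.04 in MitoParks. The 46 short members had nearly the same profile, with medians of -0.12, 0.09 and -0.01 in controls and 0.09, -0.06 and 0.01 in MitoParks. The 48 longer members had medians of -0.03, 0.10 and 0.02 in controls, and of 0.01, -0.02 and -0.01 in MitoParks. They were still high in control 2, whereas the median over the 12596 longer genes at large lay within 0.02 of 0 in every mouse. Whether length accounts for the gap between mice was not tested.

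**Figure D5:**
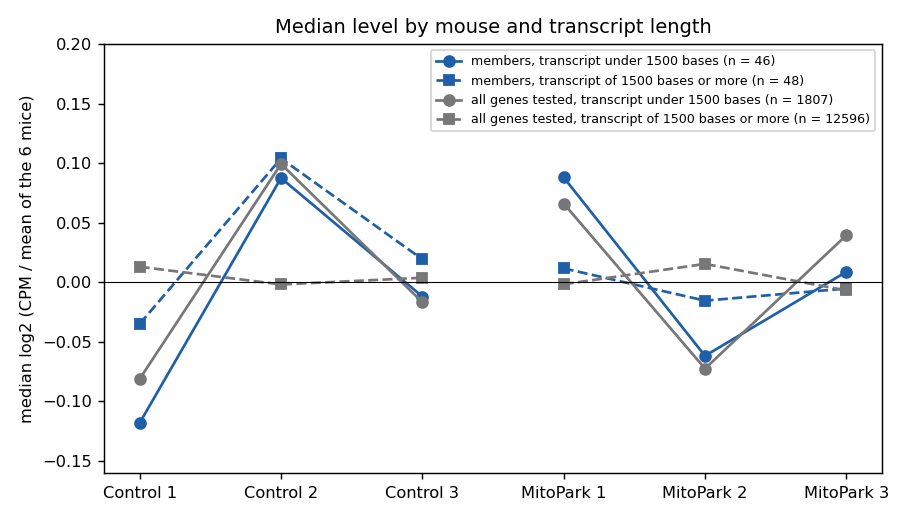
Median log2 of CPM over the mean of 6 mice (vertical axis) in each mouse, for members and all genes tested with transcripts under 1500 bases (circles, solid lines) and of 1500 bases or more (squares, dashed lines). Short members follow short genes at large. They are highest in control 2 and MitoPark 1 (both 0.09), and longer members in control 2 (0.10).

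The other nuclear genes of mitochondrial translation were read from a list of 60, all of which were tested. None passed an unadjusted p of 0.05, with 30 higher and 30 lower in MitoParks and a median log2 fold change of -0.0074. The 13 translation factors had a median of 0.028. Tufm, the elongation factor that brings charged tRNAs to the ribosome, stood at 52.6, 58.5 and 56.4 CPM in controls and at 59.5, 57.0 and 55.3 CPM in MitoParks. The groups overlapped, and the log2 fold change was 0.04 ± 0.10 (SE). Its exchange factor Tsfm was at -0.08 ± 0.15, the translocase Gfm1 at -0.04 ± 0.15 and the initiation factor Mtif2 at 0.04 ± 0.13 (SE).

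Among 6 ribosomal subunits with other names, Dap3, a GTP-binding protein of the small subunit, had the smallest unadjusted p of the list (0.0951 in edgeR's test). It stood at 50.8, 68.0 and 56.5 CPM in controls and at 51.2, 50.9 and 45.7 CPM in MitoParks. Control 1 lay among the MitoParks and control 2 was the highest mouse. The log2 fold change was -0.25 ± 0.13 (SE), and without control 1 it was -0.33 with an unadjusted p of 0.0324, when 1.65% of all genes passed. Without control 2 it was -0.12 with an unadjusted p of 0.387. The 22 genes of ribosome assembly and rRNA modification had a median of 0.0082, and the 19 genes of tRNA maturation and mRNA handling a median of -0.06 (7 higher, 12 lower). Lrpprc, which stabilises mitochondrial mRNAs, was at -0.12 ± 0.12 (SE). For 3 of the 60 genes (5%) the groups did not overlap, against 4.71% of all genes tested.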

How the data were processed

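RNA from the SN of 3 MitoParks and 3 littermate controls was sequenced. Polyadenylated RNA was used. The authors deposited RSEM expected counts for each gene, with no normalization. The submitters' processing notes name Bowtie2 2.1.0, RSEM 1.2.15 and the build hg38, and no mouse build is given for the Bowtie2 alignment in the sources used here. The table lists symbols without coordinates, and 0 columns belong to no mapped sample. In each mouse, 11.9% to 14.1% of values had decimals.

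The expected counts were rounded and normalized by TMM. Genes whose mean CPM exceeded 1 in either group were tested with edgeR 4.0.16 (R 4.3.3) by the quasi-likelihood test, with group as the only term and Benjamini-Hochberg adjustment over 14568 genes. The methods paragraph on these counts names edgeR without saying which of its tests was run. Another paragraph describes a HISAT2 alignment to a RefSeq annotation, RPKM values and a different test with a Benjamini-Hochberg cutoff, and the deposited table holds no RPKM. Intervals are 95% intervals of that fit. Permutation tests used log2(CPM + 0.1). Counts of mice in a group differed beyond sampling noise in every pair (lowest chi-square 10.05 per degree of freedom). On simulated data with the real means and library sizes (14568 genes), the test recovered 95.5% of 200 genes changed by 1 on the log2 scale, at an unadjusted p below 0.05. These 200 genes were drawn only from genes well above the level filter, so the share covers neither the lowest genes nor smaller changes. In that simulation 4.75% of unchanged genes passed, against 1.11% of all genes in the mice, so the simulated spread does not match the real one in full.

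Transcript lengths came from GENCODE M21 (94 members, 99.2% of tested genes), and promoter windows from RefSeq on GRCm38.p6, 1 start site per gene. Members with no window (12 of 94) are not in the promoter counts. Protein sequences were not used here, and some results are not reported by name. The members and lists were chosen with earlier results of these data known. Genes named are, in each class, the 3 with the smallest p, the 2 with the highest and the 2 with the lowest fold change, the 2 highest and 2 lowest in level per length, and members and factors from a fixed list. Rn45s, Mrps11, Mrpl46, Mrpl45, Mrpl9 and Pars2 were named after values or windows were seen. Alternatives were DESeq2 1.42.0, limma-voom (limma 3.58.1), 3 other normalizations, 2 other filters, a block by replicate number, and leaving out single mice. Other versions were Python 3.11.15, pandas 2.3.3 and numpy 2.4.6.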

Additional observations from a re-analysis of the deposited data

How the results depend on the processing

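With all 6 mice, 0 of 94 members passed an unadjusted p of 0.05 by DESeq2, limma-voom, RLE, upper quartile or total count normalization, both other filters or the replicate block. With 1 mouse left out the count was 0 to 1, both for the p alone and for DEGs: Mrps28 without control 1, Sars2 without MitoPark 2, and Lars2 (also a DEG) without MitoPark 3, whose log2 fold change reversed to -0.63 (0.92 without MitoPark 1). Of 672 values of 48 named genes under 14 settings, 668 kept their side of the threshold. All of these genes but Tfam lay above that p in the main fit, so this says little about their fold changes. The sign of the fold change was less stable. It changed in 4 settings for Mrps2 and in 3 for Mrps12, Mrpl41 and Fars2, and in none for Tfam, Sars2, Yars2 and Mrps28. With 1 mouse left out, the class medians ran from -0.05 to 0.05 in the large subunit and -0.04 to 0.04 in the small subunit. The synthetase median ran from -0.0024 to 0.09. Each of the 3 signs changed with some mouse left out, and that of the large subunit also under total counts (0.0047). Members whose groups did not overlap numbered 6 to 15 with 1 mouse left out (9.03% to 21.3% of all genes) and 3 under total counts or the upper quartile. The DEGs among all genes numbered 84, 176 without a filter and 62 to 219 with 1 mouse left out. Genes at the unadjusted p numbered 161, 96 by DESeq2, 242 without a filter, 323 with the replicate block and 97 to 657 with 1 mouse left out, and the cause was not tested. Mice with the same number deviated with correlations of 0.31, -0.07 and 0.24, not over 0.1 in every pair, so the numbers were not taken to pair the mice. What mice with the same number have in common is not known. Under the replicate block the class medians were -0.0077, -0.019 and 0.024, and no member passed. Medians of level per length were 46.2, 42.0 and 8.65 by coding length. At 33 to 50 counts per mouse, the lowest of the members, the 95% interval of Ears2 ran from -0.61 to 0.40 on the log2 scale. No gene passed an adjusted p of 0.05 under any of these settings but the replicate block, with 1 gene.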
